A study of Homo sapiens with 16 samples.

Results

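The 10 genes described here encode the core of the cytosolic and endoplasmic reticulum chaperone machinery and its regulators: HSPA1A, HSPA1B, HSPA8 and HSPA5 of the HSP70 family, HSP90AA1 and HSP90AB1 of the HSP90 family, the co-chaperones DNAJB1, HSPH1 and BAG3, and the transcription factor HSF1. They are 10 of 62663 annotated genes and were chosen by name, with no cut on a measured value, though earlier results of these data were known. Their members in the data were every region of the merged peak list that overlapped a gene span of GENCODE release 44 by at least 1 bp, and every peak of the 8 immunoprecipitated (IP) lists whose summit lay in such a span. This gave 19 of 36970 merged regions and 107 of 191974 peaks. Counting peaks that the merged list does not cover as sites of their own, the 10 genes held 26 sites, 25 of them with a peak in at least 1 list.

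N6-methyladenosine (m6A) is a methyl mark on adenosines of mRNA, and MeRIP-seq maps it by pulling down RNA fragments with an antibody and comparing them with unenriched input RNA. Here total RNA of C4-2B, a human prostate cancer line that responds to the androgen receptor inhibitor enzalutamide, was compared with RNA of MDV-R. The methods describe MDV-R as a resistant line raised from C4-2B by serial exposure to enzalutamide and maintained in it, so the line and the drug cannot be told apart. Both lines were labelled wild type and were grown for 3 days, with 4 replicates per line and an IP and an input library for each, 16 libraries in all. Each line is a single cell population, so the replicates measure the spread between cultures or preparations and not between tumours. The labels do not say whether replicates were separate cultures.

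Heat shock proteins keep other proteins folded. HSP70 proteins bind exposed hydrophobic stretches in a cycle driven by ATP, J-domain proteins such as DNAJB1 load clients onto HSP70, HSPH1 and BAG3 help HSP70 exchange its nucleotide, and HSP90 finishes the folding of kinases and of steroid receptors, among them the androgen receptor. HSPA8, HSP90AB1 and HSPA5, the HSP70 of the endoplasmic reticulum, are expressed at high levels in unstressed cells, while HSPA1A, HSPA1B, DNAJB1 and BAG3 are classic targets that HSF1 switches on under stress. m6A in the 5′UTR of HSP70 mRNA has been linked to translation during heat shock.

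The libraries differed in ways that touch every value below. The peak lists held 13191 to 30645 peaks, with the fewest in C4-2B replicate 1. IP depth, rebuilt from the statistics of the peak caller, was 0.317 to 0.414 M fragments (M for 1e+06), with means of 0.353 ± 0.0423 M for C4-2B against 0.359 ± 0.0445 M for MDV-R (SD, n = 4; permutation test, exact, p = 0.8). Mean input depth was 0.364 ± 0.0542 M fragments for C4-2B against 0.891 ± 0.175 M for MDV-R (SD, n = 4). The exact permutation p of 0.0286 is the lowest that groups of 4 can give, and input depth and line cannot be told apart. Permutation tests here and below are two-sided. As a check of tissue, 8 of 8 prostate genes had a peak in all 4 MDV-R lists and 6 of 8 in all 4 C4-2B lists. Of 6 urothelial genes, 2 had a peak in all 4 MDV-R lists and 1 in all 4 C4-2B lists, and 2 had a peak in any list of either line. The MDV-R libraries carry the name of a different line in their titles, and groups were taken from the field that gives the cell line.

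The strongest summits of the 25 sites lay in coding sequence (CDS) in 11 cases, in the 5′UTR in 5, in the 3′UTR in 2, in exons of non-coding isoforms in 3 and in introns in 4. Over all 35509 annotated regions, 25.2% had their summit in CDS, 13.7% in the 3′UTR, 5.65% in the 5′UTR, 9.21% in non-coding exons, 34.1% in introns and 12.1% outside any gene. Member sites were picked inside gene spans, so none could lie outside a gene. They also include peaks outside the merged list, so the 2 sets of shares are not on the same base. Member classes were taken over every isoform of the member gene. Only 2 of the 5 summits in a 5′UTR, those of DNAJB1 and BAG3, lay in the 5′UTR of the canonical transcript.

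The sequence around a summit is shown for the sites on which the comparisons turn. GGAC, the core most often methylated, and DRACH, in which D is A, G or T, R is A or G and H is A, C or T, were searched on the strand of the gene within 50 nt of the strongest summit. A GGAC followed by A, C or T is also a DRACH. Capitals mark the match nearest to the summit, GGAC where there was one and DRACH otherwise, and all stretches are hg38, 5′ to 3′ on the strand of the gene. For the stress-induced genes these were:
HSPA1B, CDS, chr6:31829634-31829659, plus strand: atcagcgaggcGGACaagaagaaggt
HSPA1A, CDS, chr6:31817440-31817465, plus strand: atcagcgaggcGGACaagaagaaggt
DNAJB1, start of the 3′UTR, chr19:14515870-14515895, minus strand: caaggatttctGGACctttctaccag
DNAJB1, 5′UTR, chr19:14518374-14518399, minus strand: gcggagccgggGGACggcgacagcgg
BAG3, last coding exon, chr10:119677068-119677094, plus strand: tccaggtctatGAACTccagcccagca
BAG3, 5′UTR, chr10:119651485-119651511, plus strand: aggctatttccAGACActtccacccct

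For HSPA5 and the HSP90 pair the nearest matches were all DRACH without GGAC:
HSPA5, last coding exon, chr9:125236789-125236815, minus strand: agctgggaggtAAACTttcctctgaag
HSP90AB1, exon 6, chr6:44250257-44250283, plus strand: tactccaaggcTAACTtctgtttttgt
HSP90AA1, exon 5, chr14:102084930-102084956, minus strand: gaagaaaaggaAGACAaagaagaagaa

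The HSPA1A and HSPA1B stretches are letter for letter the same. At HSPA8 the window of the summit that 3 lists share held neither motif. Of the 21 sites with an exonic summit, 9 had GGAC (42.9%) and 19 had DRACH (90.5%), against 45.7% and 88.1% of the 19090 exonic regions of the series. A match is a description of the letters and not a measured methylated base, since MeRIP-seq does not resolve single positions. Windows were cut from the genome without regard to splice sites. The exon or feature named with a stretch is that of the strongest summit, and the stretch itself may lie in an intron. Whether the HSP90AB1 stretch, with its match at -31 nt from the summit, lies in exon 6 was not checked.

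**Figure D1:**
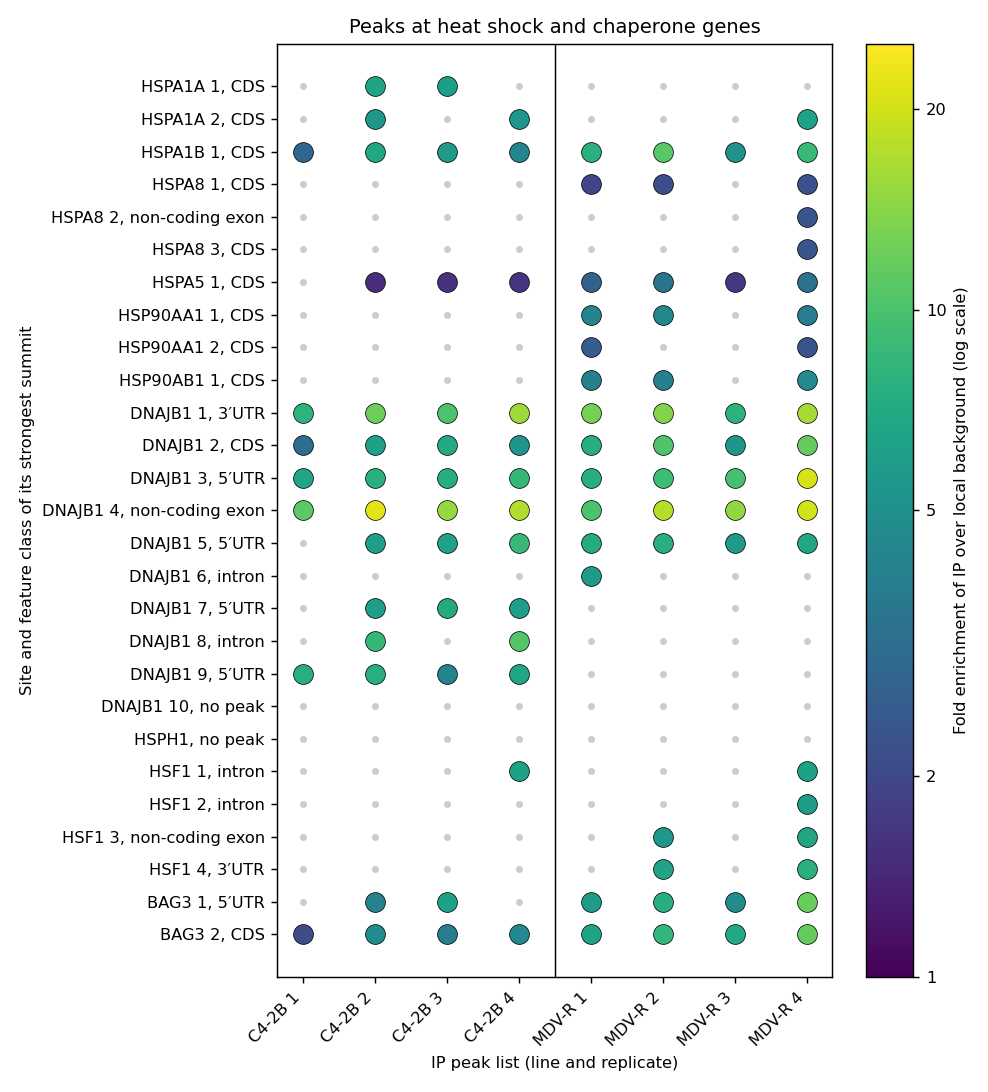
Peaks at the 10 genes. Rows are sites with the feature class of the strongest summit, numbered along the chromosome within a gene, columns are the 8 IP lists, a large circle marks a peak with its fold enrichment of IP over local background as colour (log scale), and a small grey dot marks no peak. DNAJB1 sites 1 to 4, BAG3 site 2 and HSPA1B have a circle in every list, HSP90AA1 site 1, HSP90AB1 and HSPA8 site 1 in MDV-R replicates 1, 2 and 4, and DNAJB1 site 9 in the 4 C4-2B lists.

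A region counts as called in a list where a peak of that list overlaps it. Of the 19 merged regions, 18 were called in at least 1 list. C4-2B lists called 11 of them and MDV-R lists 15, where 71.7% and 86.7% of all regions called at all had a call in at least 1 list of that line. Called in all 8 lists were 5, namely 4 of DNAJB1 and 1 of BAG3, where 25.9% of the 36076 regions called at all had that pattern. No member region passed a two-sided Fisher's exact test on 4 against 4 lists (smallest Benjamini-Hochberg adjusted p = 0.584 over all regions). The lowest unadjusted p that Fisher's exact test can give here is 0.0286, which adjusts to 0.584. No region could therefore pass after adjustment, whatever its calls. That test passed 0 regions in the whole series at an adjusted p under 0.05 and 1766 (4.90%) at an unadjusted p under 0.05, where 1 of the 19 passed. Peaks with a summit in a member span numbered 8, 14, 12 and 14 in the C4-2B lists and 15, 14, 10 and 20 in the MDV-R lists. The means of 12 ± 2.83 and 14.8 ± 4.11 (SD, n = 4) did not differ beyond the spread (exact permutation p = 0.371). Per 10000 peaks of the list the order of the means turned, at 5.72 ± 0.417 for C4-2B against 5.46 ± 1.22 for MDV-R (n = 4, SD), again within the spread (exact permutation p = 0.743).

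The fold enrichment, the IP level and the local background were compared at sites called in every list. The first is the deposited ratio of IP to local background. The IP level is the number of IP fragments over the summit per M fragments of the library (CPM). The local background is the input level that the peak caller set against the summit, given as a multiple of the lowest background in the same list, and it only approximates transcript abundance. Duplicate reads were dropped upstream, and how far this limits either level at abundant transcripts was not tested. Lists were centred on their medians before the test, which was limma with Benjamini-Hochberg adjustment over all 9327 regions called in all 8 lists. Of these regions, 0.901% were higher and 1.77% lower in MDV-R for the fold enrichment, 24.9% and 29.2% for the IP level, and 6.62% and 9.75% for the local background. The member counts were 0 of 5 for the fold enrichment, 3 of 5 lower for the IP level and 1 of 5 lower for the local background. None was higher. In bulk RNA, fewer modified copies and fewer copies of the transcript cannot be told apart from an IP level alone.

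BAG3, which links HSP70 to selective autophagy, had its main region in the last coding exon (chr10:119676210-119677413, exon 4 of ENST00000369085), with the strongest summit 195 nt before the end of the CDS. The IP level there was 260, 333, 367 and 365 CPM in C4-2B replicates 1 to 4 and 220, 261, 215 and 189 in MDV-R. C4-2B replicate 1 and MDV-R replicate 2 met at one level, and the other MDV-R lists lay below every C4-2B list. The level fell by 0.56 on the log2 scale in MDV-R (SE 0.0688, limma adjusted p = 6.28e-08), 1.47-fold lower. The local background was 127, 73.3, 96.4 and 85.4 times the lowest in the C4-2B lists and 33.8, 29.3, 35.4 and 17.3 times in the MDV-R lists. These groups were fully apart, and the background was 2.38-fold lower in MDV-R after centring (log2 difference -1.25, SE 0.208, limma adjusted p = 0.00125). The fold enrichment went the other way, with 2.08, 4.64, 3.91 and 4.58 in C4-2B and 6.45, 8.33, 6.87 and 11.7 in MDV-R. Every MDV-R value was above every C4-2B value, but the log2 difference of 0.76 (SE 0.212) did not pass the threshold (limma adjusted p = 0.059). Without centring it was 1.16 and passed (limma adjusted p = 0.0468), in a fit where the median of all regions was 0.44.

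BAG3 also had a region over its transcription start (chr10:119650822-119651683) with summits in the 5′UTR. The strongest lay at position 139 of the transcript. It was called in C4-2B replicates 2 and 3 and in all 4 MDV-R lists, which is 6 of 8. The fold enrichment was 4.12 and 6.19 in the C4-2B lists and 5.86, 7.50, 4.72 and 12.02 in the MDV-R lists, and these ranges overlapped. The IP level was 104 and 113 CPM in C4-2B against 58.9 to 74.6 in MDV-R, and the local background 24.4 and 16.5 against 4.73 to 15.01 times the lowest. Both were lower in every MDV-R list than in the C4-2B lists that called the site. The levels in C4-2B replicates 1 and 4 are not known here. In the last exon the local background was lower in every MDV-R list than in any C4-2B list, but the IP level was not.

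**Figure D2:**
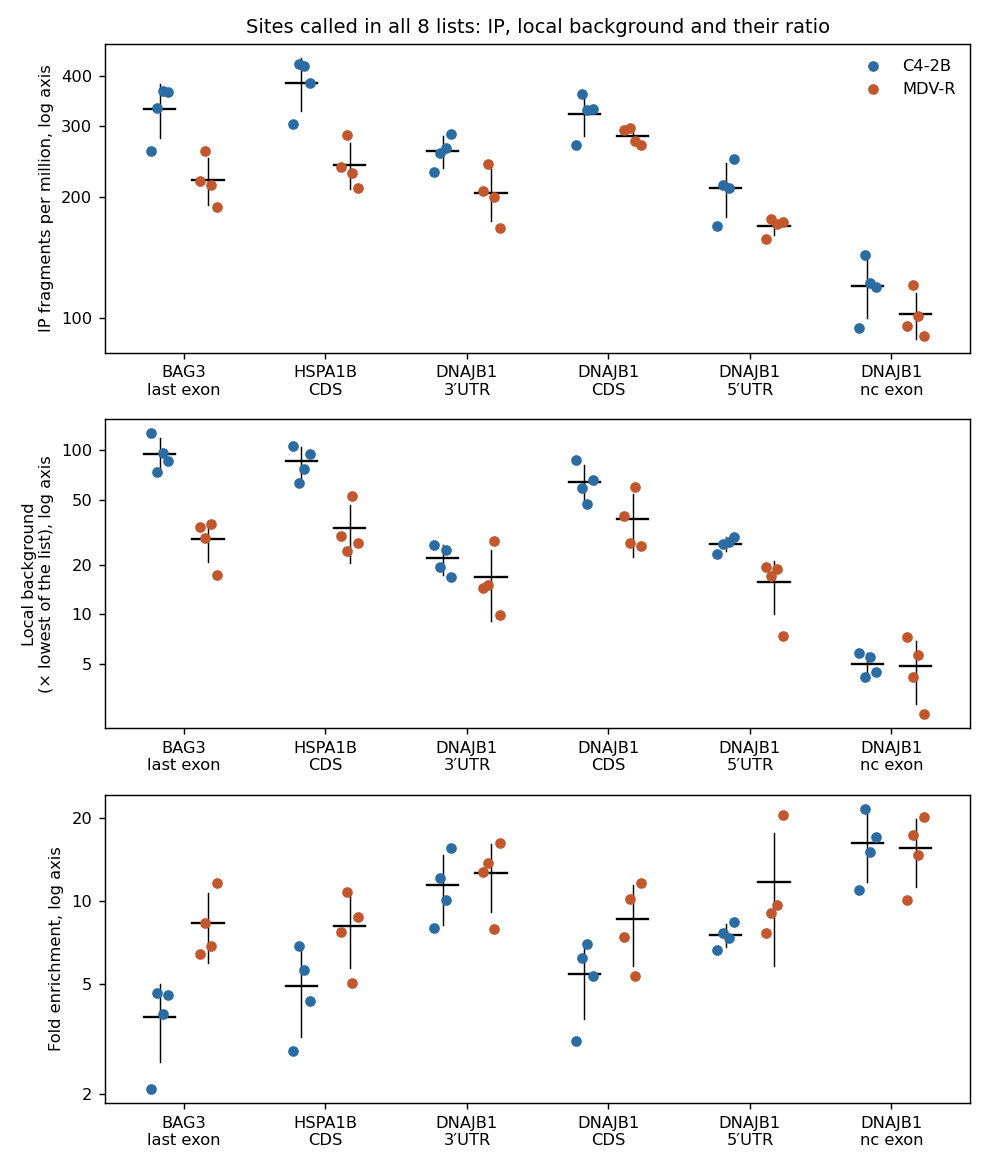
IP level, local background and fold enrichment at the 6 sites called in all 8 lists (log axes), with a point per list, a bar at the mean and a line of 1 SD on either side (n = 4 per line). In the last exon of BAG3, at HSPA1B and in the 5′UTR of DNAJB1 the MDV-R points of the local background all lie below those of C4-2B, while the lines overlap at the other DNAJB1 sites. The points are not centred, and without centring the median log2 difference of the local background over all 9327 regions was -0.48.

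HSPA1B, a stress-inducible cytosolic HSP70, carried a peak in all 8 lists and yet no region of the merged list lies in it. The same was true of 469 of the 9828 sites (4.77%) that the union of the 8 lists shows in every list. Over the 10 genes, 24 of 107 peaks (22.4%) overlapped no merged region, against 8.59% of all peaks. The main summits fell between positions 1898 and 1963 of the single-exon transcript of 2517 nt, in the last part of the CDS, at fold enrichments of 2.86, 6.84, 5.60 and 4.33 in C4-2B replicates 1 to 4 and 7.74, 10.8, 5.06 and 8.76 in MDV-R. A second summit between positions 709 and 775 was reported apart in 4 lists, with fold enrichments of 8.41 to 10.4, and in the other 4 lists 1 wide peak covered both. The IP level at the main summit was 304, 429, 425 and 384 CPM in C4-2B and 238, 285, 229 and 211 in MDV-R. The lines did not overlap. Tested on the union of the lists, the IP level was 1.56-fold lower in MDV-R (log2 difference -0.64, SE 0.0689, limma adjusted p = 1.96e-09), where 28.4% of 9828 sites were lower and 25.7% higher. The local background was 107, 63.5, 77.1 and 95.2 times the lowest in C4-2B against 30.2, 24.3, 52.5 and 27.2 in MDV-R, and this difference of -0.89 on the log2 scale passed as well (SE 0.153, limma adjusted p = 0.0018), where 9.21% of sites were lower and 6.48% higher. The fold enrichment did not pass (log2 difference 0.35, SE 0.226, limma adjusted p = 0.439), a reading in which 0.926% of sites were higher and 1.76% lower. An unnamed non-coding gene on the same strand, ENSG00000285565, has an exon at the main summit, so reads of the pair were not separated.

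HSPA1A, the neighbouring copy of HSPA1B, had peaks in C4-2B replicates 2, 3 and 4 and in MDV-R replicate 4, 5 in all. They rested on 6 to 11 IP fragments, against 77 to 152 at the main summit of HSPA1B, and had fold enrichments of 5.44 to 6.59. Only uniquely mapped reads were kept upstream. The coding sequences of the pair are 99.8% identical in hg38, with 4 differing positions in 1923 nt. These lie at coding positions 1710, 1860, 1905 and 1920, and the main summit of HSPA1B is 20 nt upstream of the nearest. Of the 100-nt stretches inside the CDS, 8.99% occur once in the genome in either gene, against 96.3% to 100% of the stretches of the canonical transcripts of the other 8 genes. Around the summits the share was 0% at the upstream HSPA1A site and 71% at its downstream site, against 80% at the main summit of HSPA1B. The second HSPA1B summit, at transcript positions 709 to 775, lies upstream of all 4 differing positions. The 100-nt stretches over it are the same in both genes, so its signal may not belong to HSPA1B alone. Values for the pair describe only the reads that could be told apart.

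No peak reached the 5′UTR of HSPA1A or HSPA1B in any list. The first base inside a peak was at position 668 in HSPA1A, whose 5′UTR has 214 nt, and at position 435 in HSPA1B, whose 5′UTR has 213 nt. Of the 100-nt stretches that start in either 5′UTR, 97.2% occur once in the genome, and the recovery of signal there was not tested. At 0.317 to 0.414 M IP fragments per library, a weaker signal there was not detectable, and the labels name no heat treatment.

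DNAJB1, the J-domain partner of inducible HSP70, held most of the member regions, 10 of 19, because its span takes in long isoforms that reach upstream. The canonical transcript (ENST00000254322, 3 exons, 2242 nt) covered 3 of them, and all 3 were called in 8 of 8 lists. The first lay at the start of the 3′UTR (chr19:14515551-14516328), where the strongest summit was 64 nt after the end of the CDS. IP levels were 231, 257, 266 and 287 CPM in C4-2B and 207, 242, 200 and 168 in MDV-R, with MDV-R replicate 2 alone inside the C4-2B range. The difference of -0.33 on the log2 scale passed (SE 0.0764, limma adjusted p = 0.000519), but not without centring (limma adjusted p = 0.0518). The local background was 17.0 to 26.6 times the lowest in C4-2B, inside the MDV-R range of 9.90 to 28.2 (log2 difference 0.03, SE 0.235, limma adjusted p = 0.947). The fold enrichment lay between 7.996 and 15.6 in C4-2B, again inside the MDV-R range of 7.90 to 16.2 (log2 difference -0.27, SE 0.241, limma adjusted p = 0.608).

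The second DNAJB1 region lay in exon 2 (chr19:14516541-14517309), inside the CDS. Its IP level was 270, 361, 330 and 331 CPM in C4-2B and 294, 298, 275 and 269 in MDV-R. C4-2B replicate 1, the list with the fewest peaks, was the lowest of its line there. The difference of -0.16 on the log2 scale missed the threshold (SE 0.069, limma adjusted p = 0.0562) and passed it without MDV-R replicate 4 (limma adjusted p = 0.0436), and the fold enrichment did not pass either (log2 difference 0.27, SE 0.221, limma adjusted p = 0.56). The third lay over the start of the canonical transcript (chr19:14518212-14518585), with the strongest summit at position 31 of a 5′UTR of 48 nt. Its IP level was 170, 215, 211 and 249 in C4-2B and 158, 177, 171 and 173 in MDV-R, 1.21-fold lower in MDV-R (log2 difference -0.28, SE 0.0881, limma adjusted p = 0.00838). C4-2B replicate 1 lay inside the MDV-R range. Without C4-2B replicate 4 the call was lost (limma adjusted p = 0.0515), as it was without centring (limma adjusted p = 0.121) and among regions called in at least 3 lists of each line (limma adjusted p = 0.123). The local background was 23.3 to 29.6 times the lowest in C4-2B and 7.39 to 19.3 in MDV-R, which did not overlap, yet its difference did not pass (log2 difference -0.38, SE 0.273, limma adjusted p = 0.38). Fold enrichment there was 6.66, 7.67, 7.32 and 8.42 in C4-2B and 7.64, 9.07, 9.70 and 20.6 in MDV-R. MDV-R replicate 4 stood apart from its group, and the log2 difference of 0.13 (SE 0.274, limma adjusted p = 0.848) turned to -0.070 without it.

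From its 5′UTR upstream, the DNAJB1 span runs antisense to TECR, which encodes an enzyme of fatty acid elongation, and each DNAJB1 summit from the 5′UTR on lies in a TECR intron. The lists carry no strand for any peak, so these peaks cannot be assigned to either gene. The nearest (chr19:14526028-14526825), 7897 nt upstream and in an exon of a non-coding DNAJB1 isoform, had the highest member enrichments of C4-2B, at 10.9, 21.6, 15.1 and 17.1, and reached 10.1, 17.4, 14.7 and 20.1 in MDV-R. The lines overlapped (log2 difference -0.46, SE 0.249, limma adjusted p = 0.341). The next (chr19:14527487-14527994) was called in all lists but C4-2B replicate 1. Among regions called in at least 3 lists of each line, its IP level was 1.61-fold lower in MDV-R (3 against 4 lists, log2 difference -0.68, SE 0.212, limma adjusted p = 0.00822), where 19.9% of 13507 regions were lower and 24.7% higher.

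Farther upstream the pattern of calls turned. A region 34359 nt upstream (chr19:14552540-14553041) was called in all 4 C4-2B lists, at fold enrichments of 7.65, 7.48, 4.20 and 6.68, and in 0 MDV-R lists. It was the sole member region called in every list of 1 line and none of the other, a pattern that 1.22% of the regions called at all showed in that direction and 3.68% in the opposite one. Its peaks rested on 9 to 14 IP fragments, and it passed Fisher's exact test only before adjustment (p = 0.0286, the lowest this test can give, adjusted p = 0.584). At a −log10 q of at least 5 it was no longer called in all 4 lists. Nearby, a region 32101 nt upstream was called in C4-2B replicates 2, 3 and 4, which makes 2 such regions without C4-2B replicate 1, and another 33823 nt upstream in C4-2B replicates 2 and 4, on 10 to 15 fragments, again in no MDV-R list. In the opposite direction a region 26858 nt upstream was called in MDV-R replicate 1 alone on 7 fragments. The last DNAJB1 region of the merged list overlapped no peak of any list, as did 894 of all merged regions.

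**Figure D3:**
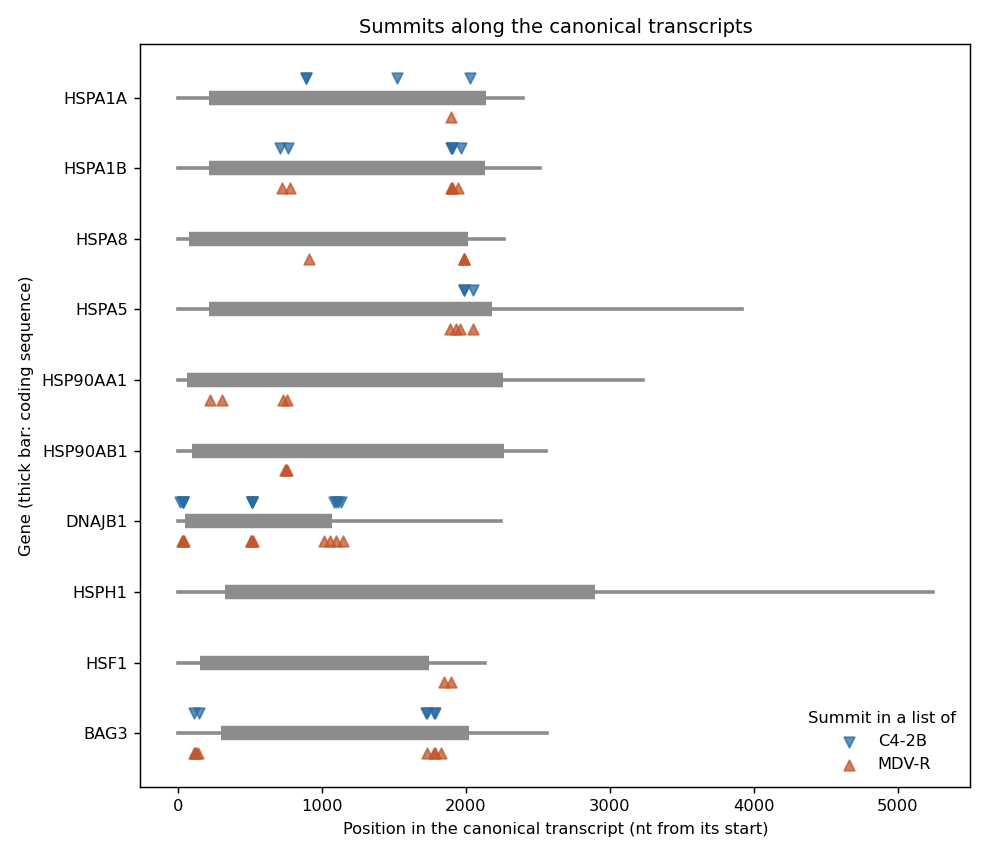
Summits along the canonical transcripts, in nt from the transcript start, with the coding sequence as a thick bar. A downward triangle is a summit in a C4-2B list and an upward one a summit in an MDV-R list, and summits outside canonical exons, such as those upstream of DNAJB1, are left out. The summits of HSPA1B, HSPA5, HSPA8 and BAG3 that the most lists share lie near the end of the coding sequence, those of HSP90AA1 and HSP90AB1 in its first part, and HSPH1 has none. In HSPA1B all 4 coding positions that differ from HSPA1A also lie near that end, and only uniquely mapped reads were kept.

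The HSP90 pair and HSPA8 gave the reverse picture, with peaks in MDV-R and none in C4-2B. HSP90AB1, the constitutive cytosolic HSP90, had 1 region (chr6:44250017-44250422, exon 6 of ENST00000371646) called in MDV-R replicates 1, 2 and 4 at fold enrichments of 4.09, 4.02 and 4.63. HSP90AA1, the stress-inducible form, had a region at exon 5 (chr14:102084852-102085222) called in the same 3 lists at 4.26, 4.49 and 3.88. Its summits in MDV-R replicates 2 and 4 lay in the CDS, and that in MDV-R replicate 1 lay outside the canonical exons. The positions in the transcripts were close, with strongest summits at 754 in HSP90AB1 and 731 in HSP90AA1. IP levels were close too, at 598, 571 and 493 CPM in HSP90AB1 and 585, 599 and 493 in HSP90AA1. They rested on 193, 184 and 185 IP fragments in HSP90AB1 and on 189, 193 and 185 in HSP90AA1. Whether dropped duplicates limit counts of this size was not tested. All 100-nt stretches over both summits occur once in the genome. A further HSP90AA1 region in exon 3 (chr14:102086002-102086546) was called in MDV-R replicates 1 and 4 at 2.54 and 2.31.

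HSPA8, the constitutive cytosolic HSP70, followed the same lists. Its region in the last coding exon (chr11:123057655-123058013), with the summit 31 nt before the end of the CDS, was called in MDV-R replicates 1, 2 and 4 at fold enrichments of 1.90, 2.15 and 2.20, against local backgrounds of 160, 124 and 120 times the lowest. Further regions, 1 in exon 5 and 1 in an exon of another isoform, were called in MDV-R replicate 4 alone at 2.30 and 2.35. Small nucleolar RNAs lie in introns of HSPA8 on the same strand, and no summit fell in them.

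None of these 3 regions passed Fisher's exact test (p = 0.143, adjusted p = 0.997 for each). Of the regions called at all, 4.31% were called in 3 MDV-R and 0 C4-2B lists, and 2.00% in exactly replicates 1, 2 and 4 of MDV-R. Those 3 libraries had the deepest inputs, with 0.890, 1.02 and 1.01 M fragments, while MDV-R replicate 3 had 0.645 M and the C4-2B inputs 0.308 to 0.431 M. Without MDV-R replicate 3, these 3 regions and the upstream DNAJB1 region made 4 that were called in every list of 1 line and none of the other. The part of input depth in these calls was not tested. Where no peak was called the deposited lists hold no value, so the C4-2B levels of HSP90AA1, HSP90AB1 and HSPA8 are not known here.

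HSPA5, also called BiP, had 1 region in its last exon (chr9:125236394-125237228), called in all lists but C4-2B replicate 1, with the strongest summit 218 nt before the end of the CDS. The fold enrichment was 1.51, 1.59 and 1.65 in C4-2B replicates 2, 3 and 4 and 2.74, 3.43, 1.69 and 3.31 in MDV-R. Every MDV-R value was above every C4-2B value, and MDV-R replicate 3 came closest. The IP level was 505, 547 and 542 CPM in C4-2B and 573, 596, 411 and 437 in MDV-R (log2 difference 0.02, 95% confidence interval -0.18 to 0.22, limma adjusted p = 0.891). These levels rested on 164 to 192 IP fragments over both lines, where dropped duplicates may limit the count. The local background was 352, 361 and 361 times the lowest in C4-2B, the highest of any member site, and 222, 176, 293 and 163 in MDV-R. MDV-R replicate 3, the highest of its line, had the least deep input of that line, 0.645 M fragments. Among the 13507 regions called in at least 3 lists of each line the background was lower in MDV-R (3 against 4 lists, log2 difference -0.48, SE 0.121, limma adjusted p = 0.0192), where 9.81% were lower and 5.06% higher. The part of input depth and of dropped duplicates in this difference was not tested. The fold enrichment did not pass (log2 difference 0.52, SE 0.156, limma adjusted p = 0.0715), where 1.11% of regions were higher and 1.68% lower. Of the 100-nt stretches over the strongest summit, 64% occur once in the genome.

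HSF1, the transcription factor that switches on heat shock genes under stress, had no merged region. Its 7 peaks lay at 4 places, 1 of them in C4-2B replicate 4, 2 in MDV-R replicate 2 and 4 in MDV-R replicate 4. The strongest, in the 3′UTR of the last exon with a summit 155 nt after the end of the CDS, was called in MDV-R replicates 2 and 4 at fold enrichments of 6.44 and 7.73 on 32 IP fragments each. The others were in introns or in an exon of another isoform. HSPH1, the large HSP70 relative HSP105, had no peak in any list, although all 100-nt stretches of its transcript of 5244 nt occur once in the genome. Across the annotation 56.9% of 20033 protein-coding genes overlapped a merged region, and 6 of the 10 members did.

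The wider chaperone network was read from a list of 66 further genes. Of these, 43 held 89 merged regions, and 24 regions were called in all 8 lists, a pattern of 25.9% of all regions called at all. In those 24 the fold enrichment was higher in MDV-R in 0 and lower in 1, the IP level higher in 11 and lower in 5, and the local background higher in 4 and lower in 4. Over all 9327 such regions the shares higher and lower were 0.901% and 1.77%, 24.9% and 29.2%, and 6.62% and 9.75%, in the same order. The median log2 differences were 0.23, 0.14 and 0.07, beside 0.03, -0.02 and 0.01 over all regions tested. Of the 11 regions with a higher IP level, 8 were in HSPA12A, HSPA13 and HSPA14 of the HSP70 group, which held 9 of the 24 regions, with the 9th lower. These genes were named after their values were seen. The 10 chaperonin genes held 1 merged region between them, where 56.9% of all protein-coding genes overlapped a merged region.

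The region lower in fold enrichment belonged to HSPA6, a strictly stress-inducible HSP70, and spanned its coding sequence (chr1:161524781-161526715). The enrichment was 23.7, 35.9, 44.2 and 18.3 in C4-2B and 5.79, 9.90, 8.19 and 7.41 in MDV-R, with no overlap (log2 difference -2.31, SE 0.289, limma adjusted p = 0.000301). The IP level fell from 119, 133, 174 and 164 to 27.9, 37.2, 24.1 and 29.3 CPM, a log2 difference of -2.29 (SE 0.166, limma adjusted p = 8.94e-13). The MDV-R peaks rested on 9 to 12 IP fragments. Local background was at the lowest of the list in 4 of the 8 lists and at most 6.57 times it, and its difference did not pass (log2 difference 0.15, SE 0.625, limma adjusted p = 0.897). With a background this low, the fold enrichment mostly repeats the IP level and does not correct for transcript abundance. A non-coding gene overlaps the summit, and HSPA6 has a close copy nearby, so the counts of this gene are uncertain. HSPA2, a testis-enriched HSP70, had the sole region of the wider list that every C4-2B list and no MDV-R list called (chr14:64542077-64542724), at fold enrichments of 12.1, 8.66, 11.4 and 9.34 on 26 to 31 IP fragments (Fisher's exact adjusted p = 0.584). That pattern, 1 of the 89 regions here, was seen in 1.22% of the 36076 regions called at all. FKBP5, an HSP90 co-chaperone and androgen receptor target, was picked after its values were seen. In an intron of it (chr6:35575567-35576178) the IP level was 338 to 419 CPM in C4-2B and 79.98 to 118 in MDV-R (log2 difference -1.89, SE 0.0885, limma adjusted p = 3.1e-17), and the local background fell by 2.76 on the log2 scale (SE 0.225, limma adjusted p = 5.57e-06). The fold enrichment was 1.91 to 2.78 in C4-2B and 3.26 to 9.99 in MDV-R, which did not overlap, and did not pass (log2 difference 0.83, SE 0.229, limma adjusted p = 0.0571).

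**Figure D4:**
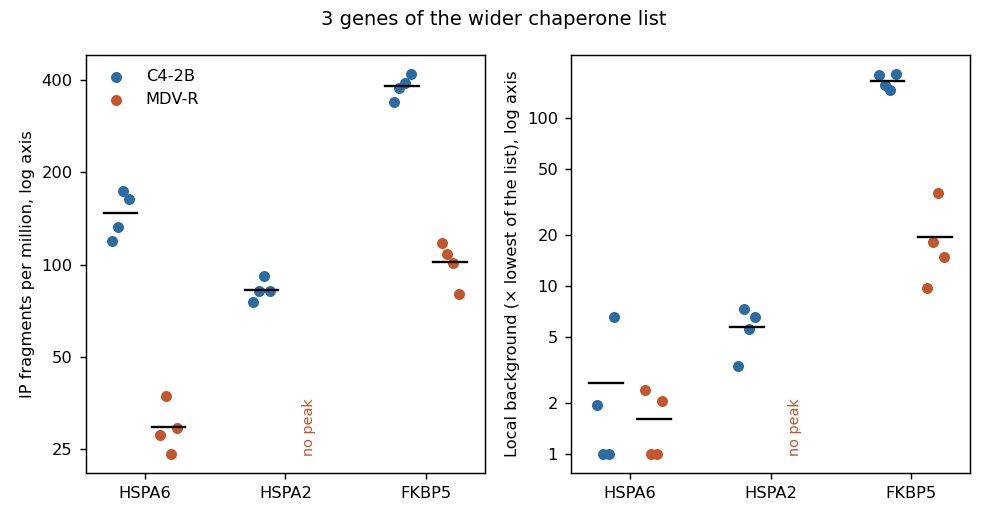
IP level and local background at a region each of HSPA6, HSPA2 and FKBP5 (log axes), with a point per list and a bar at the mean. HSPA6 and FKBP5 have lower IP points in all 4 MDV-R lists than in any C4-2B list, HSPA2 has no peak in MDV-R, and the background of FKBP5 falls with its IP level while that of HSPA6 overlaps between lines.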

How the data were processed

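MeRIP-seq was read from 8 IP peak lists, 4 per line, and 1 merged region list. Per the submitters' notes and the study's methods, alignment used STAR 2.7.0 on hg38, reads that mapped once were kept and duplicates dropped (SAMtools 1.10), and MACS2 3.0.0a6 called peaks against input, with 100 nt named as extension and 300 Mb as genome size. The deposited lists give, per peak, the ratio of IP to background as fold enrichment, −log10 p-values, −log10 q-values and an integer score, all made by the authors' peak caller, and they carry no counts. The lowest −log10 q was 2.00 to 2.11. How the deposited merged list was made is not given in the sources used here, and it carries no value.

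IP fragments and background at each summit were recovered from the fold enrichment and the −log10 p. A whole number of fragments matched every peak within a relative tolerance of 1e-04. Background values fell on the steps of windows 239 to 293 nt long, not of the named extension, so depth was rebuilt from those lengths and is an estimate that rests on the genome size. Depth limits what could be called.

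Overlaps of at least 1 bp counted as called (bedtools 2.31.1). Per region and list the peak with the highest −log10 p was used. limma 3.58.1 with a variance trend was fitted to log2 values of the regions called in all 8 lists, each list centred on its median. HSPA1B was tested on the union of the lists, an alternative chosen after seeing the data. Calls were tested with Fisher's exact test and single values with exact permutation over 70 arrangements, at a threshold of 0.05. On simulated data for the fold enrichment, with 9327 regions of which 100 changed by 1 and 100 by 2 on the log2 scale, limma recovered 43% and 93%, with 4.89% false calls. Nothing says that replicates were separate cultures, so p-values measure the spread between these samples, which may be technical.

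The members, the lists and the tests were chosen with earlier results of these data known. Named were every member region and, of the wider list of 66 genes, up to 5 regions per direction with the largest fold enrichment differences past the threshold and those called in 4 lists of 1 line and 0 of the other. Sequences are from hg38 and gene models from GENCODE release 44. Alternatives were no centring, quantile normalization, the peak with the highest enrichment, regions called in at least 3 lists of each line, a mean of at least 20 IP fragments, no variance trend, exact permutation per region, the ratio without the 1 that the caller adds, a replicate block, a −log10 q of at least 5, lists limited to the smallest, 50% overlap, regions whole inside spans, the union of the lists, and leaving out each list.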

Additional observations from a re-analysis of the deposited data

Results flagged for a closer look

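Of 50 groups of 4 lists examined at member sites, of which chance flags about 1 in 20, 1 held a value far from its group. In the 5′UTR of DNAJB1 the fold enrichment in MDV-R replicate 4 was 20.6, against 7.64 to 9.70 in the other MDV-R lists. The local background there was 7.39 times the lowest of the list, against 17.2 to 19.3 in the other MDV-R lists, and the IP level of 173 CPM lay inside their range of 158 to 177.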

How the results depend on the processing

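Of the alternative values of the summary results, 116 kept the direction and side of the threshold of a tested difference or, for a count, stayed within 1.5 times of it. Of the rest, 7 counts moved further, 4 fell to 0, 1 rose from 0 and 1 difference turned. The Fisher's exact count is among the 116 and could not move, since 0 regions of the series passed in any setting. The 116 also include members past the threshold for the IP level, 3 in the main setting and 2 to 4 on leaving out each list (2 without C4-2B replicate 4, 4 without C4-2B replicate 1 or MDV-R replicate 4), and regions called in every list, 5 in the main setting and 7 without C4-2B replicate 1. The member regions called in every list of 1 line and none of the other, 1 in the main setting, were 0 at a −log10 q of at least 5 and 0 with lists limited to the smallest, and ranged from 1 to 4 when leaving out each list. Limiting the lists also lowered the regions called in at least 1 MDV-R list from 15 to 9. The difference in peaks within spans (2.75) was -0.27 per 10000 peaks. Without centring, 1 member passed for the fold enrichment (BAG3) and 1 for the IP level, in place of 0 and 3. Among regions called in at least 3 lists of each line the IP count stayed at 3, with the DNAJB1 5′UTR lost and the region 9346 nt upstream of the DNAJB1 start added. Under exact permutation per region, 0 passed for the IP level and 0 for the local background, and of all 9327 regions 0 passed for any reading (4308 for the IP level, 1977 for the background and 999 for the enrichment at an unadjusted p under 0.05), with a smallest adjusted p of 0.0619 for the IP level. For the local background, 2 members passed among regions called in at least 3 lists of each line (HSPA5 added) and 2 on the union, chosen after seeing the data (HSPA1B added), and leaving out each list gave 1 to 2, with 2 without C4-2B replicate 1. The fold enrichment at the DNAJB1 3′UTR turned to 0.13 without centring, and at its 5′UTR to -0.070 without MDV-R replicate 4, with 0.29 the highest value on leaving out a list. The local background at the DNAJB1 3′UTR turned to -0.46 without centring and -0.042 in at least 3 lists, and ranged from -0.11 to 0.15 on leaving out lists. At the non-coding exon it turned to -0.13 without centring. The causes were not tested. Over all regions, the counts past the threshold for the fold enrichment were 84 higher and 165 lower in the main setting, 282 and 20 without centring, 14 and 10 with the ratio lacking the added 1, and 179 and 309 without MDV-R replicate 3. For the IP level they were 2322 and 2725 against 1333 and 1860 without centring.

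Replicate numbers did not pair the samples: correlations of same-numbered lists lay between -0.07 and 0.04. With the replicate block, the BAG3 difference in fold enrichment stayed at 0.76 (limma adjusted p = 0.0744), no member call changed, and the peaks in spans still differed by 2.75 (exact sign-flip p = 0.5). The lowest p that the sign-flip test can give here is 0.125, so it could not pass the threshold. Depth of 0.317 to 0.414 M IP fragments limits weak peaks, and an uncalled site has no value here.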
